A study of Mus musculus with 23 samples.

Results

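Intergenic regions of open chromatin that lay 10 to 100 kb from the nearest protein-coding gene were examined in mesenchyme from the maxillary prominence of mouse embryos, the facial swelling that forms the upper jaw, the cheek and most of the palate. Peaks of 9 lists were merged into regions where they overlapped by 1 bp or more on the 19 autosomes and chromosome X. A region was taken when 3 or more lists called it, its midpoint lay outside every protein-coding gene body, and the nearest of 21631 protein-coding genes was 10 to 100 kb away (mm10, RefSeq). This gave 2663 regions of the 18808 that 3 or more lists called, out of 118102 merged regions in all. The others fell into 3 classes, with 12131 inside a gene body, 3222 outside but within 10 kb, and 792 beyond 100 kb.

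All embryos were wild-type C57BL/6 mice. Dissection was on embryonic day 10.5 (E10.5), on day 11.5 (E11.5) or on day 12.5 (E12.5). Dispase II digestion let the ectoderm be removed from the maxillary prominences, and the mesenchyme was profiled by ATAC-seq, in which the Tn5 transposase inserts adapters into accessible DNA. Each stage has 3 biological samples with 1 peak list each, made from 23 library runs in all, and no treatment or allele distinguishes the groups. How many embryos were pooled per sample is not stated, so p-values measure only the spread between these samples, which may be partly technical. In bulk samples a region open in fewer cells and one less open in each cell cannot be told apart. The 9 lists are named below by stage and sample number.

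Open chromatin far from genes often holds enhancers, DNA elements that raise transcription of a gene at a distance by binding transcription factors and looping to its promoter. In the face such elements control patterning genes of the neural crest mesenchyme, and many act over long distances, so the nearest gene is a label for the position and not a proven target. A smaller class of distant open sites are promoters of long non-coding RNAs (lncRNAs), which are transcribed like messenger RNAs but not translated. Promoters of broadly used genes are commonly rich in C+G and CpG and carry GC boxes, bound by Sp factors, or sites of the ETS family.

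The lists differ in length and fold level, which bears on every count below. The E10.5 lists hold 16057, 19095 and 14886 peaks, the E11.5 lists 5682, 24908 and 41457, and the E12.5 lists 26584, 50361 and 19139. No read counts were among the files, so the depth is unknown. E11.5 lists 1 and 2 come from 1 run each, have the highest median fold enrichment over background (5.06 and 4.98, against 2.47 to 3.5 in the other 7 lists) and reach folds of 19.4 and 20.4. Promoter windows of 8 mesenchymal marker genes were called in 0 to 5 cases per list, and those of Col3a1, Pdgfra and Prrx2 in none, so the labelled cell type has little marker support at promoters in these lists. Epithelial markers were called at 0 to 2 of 9 promoters, endothelial at 0 to 2 of 7, blood at 0 to 3 of 8, myogenic at 0 to 1 of 6 and neural at 0 to 4 of 8.

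Of the 2663 regions, 104 (3.91%) overlapped the promoter window of a non-coding gene, taken as the 250 bases before to 50 bases after its start, against 5.35% of all 18808 regions. By class it was 8.41% within 10 kb, 5.08% inside gene bodies and 2.02% beyond 100 kb. None of the 2663 regions overlapped a promoter window of a protein-coding gene, which the distance rule fixes in advance. In all, 22.5% of the regions overlapped an annotated lncRNA gene. The regions called in all 9 lists overlap promoter windows of 5 non-coding genes, and those called in 8 lists overlap windows of 7 more. An overlap of 1 bp or more was enough, so a window can lie partly outside its region. The sequences below show all of the first 5, and Dancr, Chaserr and Dleu2 of the 7, which were picked by name, since they are lncRNAs with a well described role. They are from RefSeq's GRCm38.p6 table, 5′ to 3′ on the gene's strand. Capitals mark GC boxes (GGGCGG), ETS matches (CCGGAAG) and CREB matches (TGACGT), on either strand, with overlapping matches run together. Of the 5, Gm16897 is at chr1:194976910-194977209 (minus strand), Gm17762 at chr2:18026999-18027298 (plus strand), Gm36445 at chr13:65241265-65241564 (plus strand) and D130051D11Rik at chr15:85634346-85634645 (plus strand), 53.0 kb from Wnt7b. Gm33195 has 3 overlapping windows, and the first, at chr13:43864168-43864467 (plus strand), is shown. Its region begins at base 43864441, so most of the printed window lies outside the region. The other windows begin at bases 43864305 and 43864306. They have 57.0% and 57.3% C+G, against 47.7% in the printed one, and CpG observed-over-expected ratios of 0.63 and 0.62, against 0.18. Dancr, a lncRNA that also hosts a small nucleolar RNA, is at chr5:74092810-74093109 (plus strand). Chaserr, which lies beside the chromatin remodeller gene Chd2 and restrains its expression, is at chr7:73558346-73558645 (minus strand). Dleu2, a lncRNA that hosts microRNAs, is at chr14:61682324-61682623 (minus strand), and its region ends within the window, at base 61682451.
Gm16897: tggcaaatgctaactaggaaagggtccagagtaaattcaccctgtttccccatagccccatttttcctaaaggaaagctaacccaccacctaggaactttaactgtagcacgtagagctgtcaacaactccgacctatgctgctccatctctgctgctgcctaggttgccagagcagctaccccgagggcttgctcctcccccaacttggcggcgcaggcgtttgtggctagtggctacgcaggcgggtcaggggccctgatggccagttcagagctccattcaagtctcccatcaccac
Gm17762: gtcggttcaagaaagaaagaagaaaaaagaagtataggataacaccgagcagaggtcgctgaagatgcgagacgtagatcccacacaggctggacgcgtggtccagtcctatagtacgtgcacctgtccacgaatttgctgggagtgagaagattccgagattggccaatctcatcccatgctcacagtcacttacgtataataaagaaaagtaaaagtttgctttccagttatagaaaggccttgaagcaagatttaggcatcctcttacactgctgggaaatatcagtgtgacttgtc
Gm33195: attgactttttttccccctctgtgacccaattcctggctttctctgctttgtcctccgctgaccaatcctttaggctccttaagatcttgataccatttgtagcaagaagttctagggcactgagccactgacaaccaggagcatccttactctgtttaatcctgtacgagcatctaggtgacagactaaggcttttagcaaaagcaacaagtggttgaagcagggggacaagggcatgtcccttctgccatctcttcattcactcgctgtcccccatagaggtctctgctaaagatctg
Gm36445: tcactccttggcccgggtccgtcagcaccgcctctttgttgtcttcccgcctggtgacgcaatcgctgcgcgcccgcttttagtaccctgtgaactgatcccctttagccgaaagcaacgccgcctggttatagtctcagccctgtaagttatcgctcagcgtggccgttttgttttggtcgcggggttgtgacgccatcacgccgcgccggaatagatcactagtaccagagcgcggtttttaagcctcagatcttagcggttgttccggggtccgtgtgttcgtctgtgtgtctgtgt
D130051D11Rik: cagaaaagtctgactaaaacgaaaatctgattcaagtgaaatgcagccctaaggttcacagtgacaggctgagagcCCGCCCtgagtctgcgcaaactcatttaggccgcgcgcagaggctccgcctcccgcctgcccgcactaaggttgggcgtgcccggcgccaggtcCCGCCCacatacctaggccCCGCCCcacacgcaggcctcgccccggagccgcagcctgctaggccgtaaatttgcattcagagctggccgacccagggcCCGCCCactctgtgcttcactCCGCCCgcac
Dancr: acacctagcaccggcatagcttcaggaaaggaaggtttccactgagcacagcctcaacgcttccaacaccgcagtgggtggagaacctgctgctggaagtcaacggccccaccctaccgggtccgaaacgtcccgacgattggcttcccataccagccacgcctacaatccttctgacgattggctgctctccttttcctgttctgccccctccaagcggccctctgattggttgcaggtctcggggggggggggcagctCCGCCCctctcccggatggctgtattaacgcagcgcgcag
Chaserr: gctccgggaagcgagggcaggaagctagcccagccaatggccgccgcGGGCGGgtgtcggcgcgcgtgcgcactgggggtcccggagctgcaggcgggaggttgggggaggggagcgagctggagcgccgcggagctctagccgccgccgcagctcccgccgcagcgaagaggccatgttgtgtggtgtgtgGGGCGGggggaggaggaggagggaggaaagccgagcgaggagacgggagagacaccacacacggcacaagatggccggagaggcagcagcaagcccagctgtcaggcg
Dleu2: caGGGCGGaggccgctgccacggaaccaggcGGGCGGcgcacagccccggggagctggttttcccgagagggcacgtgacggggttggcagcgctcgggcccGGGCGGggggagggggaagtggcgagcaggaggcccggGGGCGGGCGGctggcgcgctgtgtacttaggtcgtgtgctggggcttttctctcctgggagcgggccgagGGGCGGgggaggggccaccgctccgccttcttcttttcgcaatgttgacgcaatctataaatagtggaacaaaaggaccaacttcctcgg

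These widely called promoters were of mixed composition. Over all 12 genes the C+G content ran from 45.0% in Gm17762 to 72.3% in Chaserr. A GC box was in 7 of the 12, an ETS match in 2, a CREB match in 0, and none of the 3 motifs in 5. Of the 5 genes in regions called in all 9 lists, only D130051D11Rik holds a GC box (5 of them, 63.7% C+G), and the other 4 hold no match, with 45.0% to 57.3% C+G. Of the 7 in regions called in 8 lists, 6 hold a GC box, among them Dleu2 with 6 and Dancr with 1. The 4 that are not shown are 5430416N02Rik and Gm2885, with 2 ETS matches each and 59.3% and 67.7% C+G, Gm10433 with 58.7%, and Gm29638, which has 55.3% and no match.

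The next 3 promoters are shown for the stages at which their regions were called. Gm46609, at chr17:87613494-87613793 (minus strand), lies 22.3 kb upstream of Epcam in a region called only in the 3 E11.5 lists. BC002059, at chr17:16951286-16951585 (plus strand), is in another region called only in the 3 E11.5 lists, where its fold ranked at the 99.8th to 100th percentile. B230208H11Rik, at chr10:12923078-12923377 (minus strand), was called in the 3 E10.5 lists and in E11.5 lists 2 and 3 but in 0 lists at E12.5.
Gm46609: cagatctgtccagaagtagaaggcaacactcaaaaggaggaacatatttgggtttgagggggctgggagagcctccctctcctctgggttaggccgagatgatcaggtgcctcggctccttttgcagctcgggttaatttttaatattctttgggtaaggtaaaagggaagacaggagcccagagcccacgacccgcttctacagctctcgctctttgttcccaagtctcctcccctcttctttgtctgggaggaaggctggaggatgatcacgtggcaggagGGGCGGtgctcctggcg
BC002059: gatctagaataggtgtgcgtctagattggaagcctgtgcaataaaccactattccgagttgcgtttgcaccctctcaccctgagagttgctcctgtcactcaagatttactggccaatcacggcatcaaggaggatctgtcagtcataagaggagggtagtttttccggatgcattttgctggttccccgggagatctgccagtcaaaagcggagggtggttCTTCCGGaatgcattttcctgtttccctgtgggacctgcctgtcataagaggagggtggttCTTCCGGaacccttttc
B230208H11Rik: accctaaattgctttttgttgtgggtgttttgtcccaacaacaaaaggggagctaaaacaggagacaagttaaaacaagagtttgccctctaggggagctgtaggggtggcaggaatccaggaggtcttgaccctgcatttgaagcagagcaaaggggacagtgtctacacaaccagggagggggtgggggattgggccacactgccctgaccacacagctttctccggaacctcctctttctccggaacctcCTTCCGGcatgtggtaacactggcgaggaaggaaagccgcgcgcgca

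The C+G content of these 3 windows is 54.7%, 50.7% and 54.3%, inside the range of the 12 widely called genes. BC002059 holds 2 ETS matches, B230208H11Rik 1 and Gm46609 a GC box.

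Over whole groups, the 26 non-coding promoter windows overlapped by regions called in 7 or more lists had a median C+G content of 59.0% and a CpG observed-over-expected ratio of 0.76. The 66 windows overlapped by regions called in 3 or 4 lists had 55.3% and 0.40. All 11574 non-coding promoters had 48.3% and 0.24, and all 21045 protein-coding promoters 56.7% and 0.57. A GC box was present in 53.8%, 31.8%, 16.3% and 46.7% of these 4 groups in turn. An ETS match was present in 23.1%, 6.06%, 3.9% and 11.7%. A CREB match was in 7.69%, 6.06%, 5.72% and 8.58%, and a CCAAT box (CCAAT) in 34.6%, 36.4%, 35.9% and 38.5%. A TATA box (TATAAA) was in 3.85%, 7.58%, 15.5% and 12.7%, and a TALE homeodomain match (TGACAG) in 34.6%, 21.2%, 20.1% and 18.3%. The windows in the most widely called regions were closer to protein-coding promoters than to the average non-coding one for C+G, CpG and GC boxes. They were no closer for CCAAT, above both for ETS and TALE, and below both for TATA. Windows in regions called in 3 or 4 lists were also closer to protein-coding promoters for C+G. Several genes contribute more than 1 window. These are descriptions of the reference sequence and no binding was measured.

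The share of regions at a non-coding promoter was higher among the widely called regions. It was 2.41% of the 1450 regions called in 3 lists, 3.96% of 606 in 4, 4.85% of 268 in 5 and 4.71% of 170 in 6. It was then 9.92% of 121 in 7 lists, 24.1% of 29 in 8 and 26.3% (5) of the 19 called in all 9. Over all 18808 regions the same share went from 2.61% in 3 lists to 13.7% in 9. No test was made of this gradient, and the regions called in 8 or 9 lists are few.

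**Figure D1:**
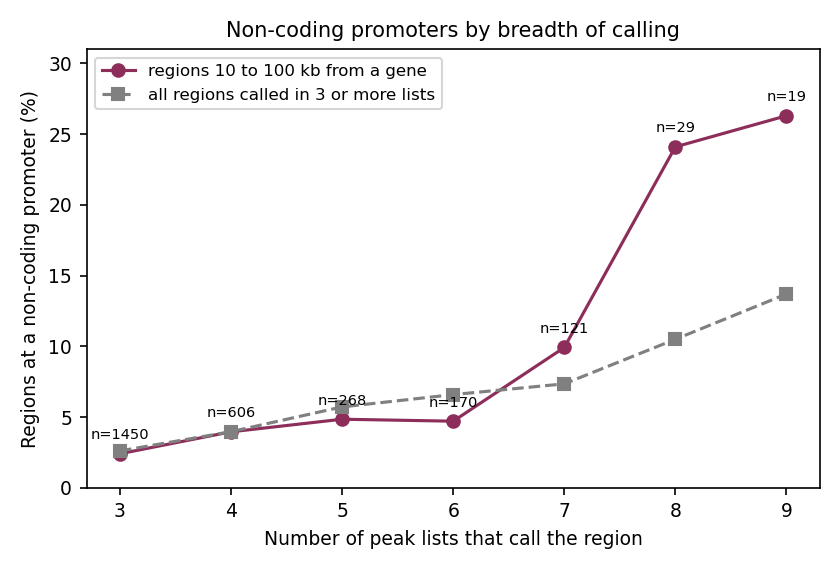
Share of regions that overlap a non-coding promoter window (vertical axis, percent) by the number of the 9 peak lists that call the region (horizontal axis), for regions 10 to 100 kb from a gene (circles, with the number of regions) and for all regions called in 3 or more lists (squares). The share was 2.41% among regions called in 3 lists and 26.3% among the 19 called in all 9.

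Regions 10 to 100 kb from a gene were mostly called in few lists. Of these, 54.4% were called in exactly 3 lists and 0.713% in all 9, against 36.5% and 6.41% over all regions. Their median width was 487 bp, against 649 bp inside gene bodies, 599 bp within 10 kb and 495 bp beyond 100 kb. The median distance to the nearest gene body was 29226 bp, with quartiles of 16984 and 49906 bp. Of the 2050 regions whose nearest gene has a known strand, 53.2% lay upstream and 46.8% downstream. Another region of the set lay within 10 kb of 17.5% of them. At the edges of the rule, regions at Neurog1 (10023 bp) and Hs6st3 (10043 bp) were just inside and one at Sbk1 (9988 bp) just outside. At the far edge, Thsd7b (99968 bp) was inside and Hlx (100032 bp) outside.

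The peaks of these regions were also weaker, by median fold rank, than those of the other classes in most lists. The authors' fold enrichment was turned into a percentile rank within each list, where 100 is the strongest peak. The median rank of regions 10 to 100 kb away was 52.8, 55.0 and 53.8 in the E10.5 lists, 44.5, 58.9 and 54.9 in the E11.5 lists, and 65.0, 74.5 and 59.5 in the E12.5 lists. It was below that of regions within 10 kb of a gene in 9 of 9 lists, with a mean difference of -13.2 ± 7.48 percentile points (SD, n = 9 lists, exact two-sided sign-flip permutation test p = 0.00391, adjusted over 3 tests 0.0117). The difference was -16.1 to -14.2 points at E10.5, -27.5 to -14.7 in the E11.5 lists and -6.73 to -3.14 in the E12.5 lists. Against gene bodies the mean difference was -10.3 ± 7.49 points (exact sign-flip permutation p = 0.0156, adjusted 0.0234), with lower ranks in 7 of 9 lists. It was 0.0 and 0.7 points in E12.5 lists 1 and 2. A protein-coding promoter window was overlapped by 46.2% of regions within 10 kb and 44.1% of those inside gene bodies. The part of such promoters in the rank, width and breadth differences was not tested. At equal breadth of calling the ranks were not lower throughout. The median over all calls was 54.9 in regions called in 3 lists, against 52.5 for all such regions. It was 58.8 against 57.8 in 4 lists and 63.0 against 62.7 in 5. From 6 lists up it was lower, with 66.4 against 68.9 in 6 and 84.8 against 91.2 in 9. The part of breadth in the rank differences was not tested. Against regions beyond 100 kb the mean difference was -5.04 ± 4.89 points (exact sign-flip permutation p = 0.0234, adjusted 0.0234), also lower in 7 of 9 lists. This last difference did not pass when peaks were ranked by −log10 p, with -1.83 points and an exact permutation p of 0.25. The difference from gene bodies was -9.85 points without E11.5 lists 1 and 2 (exact permutation p = 0.0625).

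By stage, these regions took their largest share of calls at E12.5. They made up 9.94%, 10.5% and 11.4% of the called regions in the E10.5 lists, 4.12%, 5.68% and 12.2% in the E11.5 lists, and 17.0%, 15.6% and 12.5% in the E12.5 lists. Every E12.5 value was above every value of the other 2 stages, while E11.5 split, with lists 1 and 2 lowest of all and list 3 above the E10.5 lists. The means were 10.6% ± 0.722, 7.34% ± 4.3 and 15.0% ± 2.33 (SD, n = 3 each). E12.5 was higher than E10.5 by 4.42 percentage points and than E11.5 by 7.69 points (exact two-sided permutation p = 0.1 for each, the smallest that 3 against 3 allows, adjusted over 8 tests 0.2). E11.5 minus E10.5 was -3.28 points (exact permutation p = 0.4), with -1.66 points without E11.5 list 1 and -5.72 without E11.5 list 3. A slope of 2.21 points per day gave an exact permutation p of 0.219. Without E11.5 lists 1 and 2 the slope was 2.21, and E11.5 list 3 minus E10.5 was then 1.61 points. E12.5 minus E11.5 was then 2.81 points. E11.5 lies at the mean day, so its lists bear on the p of this slope and not on its size. Without E12.5 list 1 the slope was 1.32 (exact permutation p = 0.468).

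The size of these differences also moved with the regions and peaks taken. With lists cut to the strongest peaks at equal length, which left 307 regions of this class, E12.5 was higher than E10.5 by 1.89 points and than E11.5 by 3.55 points, and the slope was 0.943 (exact permutation p = 0.161). With peaks of −log10 q of 5 or more, which left 279, the differences were 2.43 and 1.89 points. Among the 1213 regions called in 4 or more lists, E12.5 minus E10.5 was 2.78 points and the slope 1.39 (exact permutation p = 0.299).

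**Figure D2:**
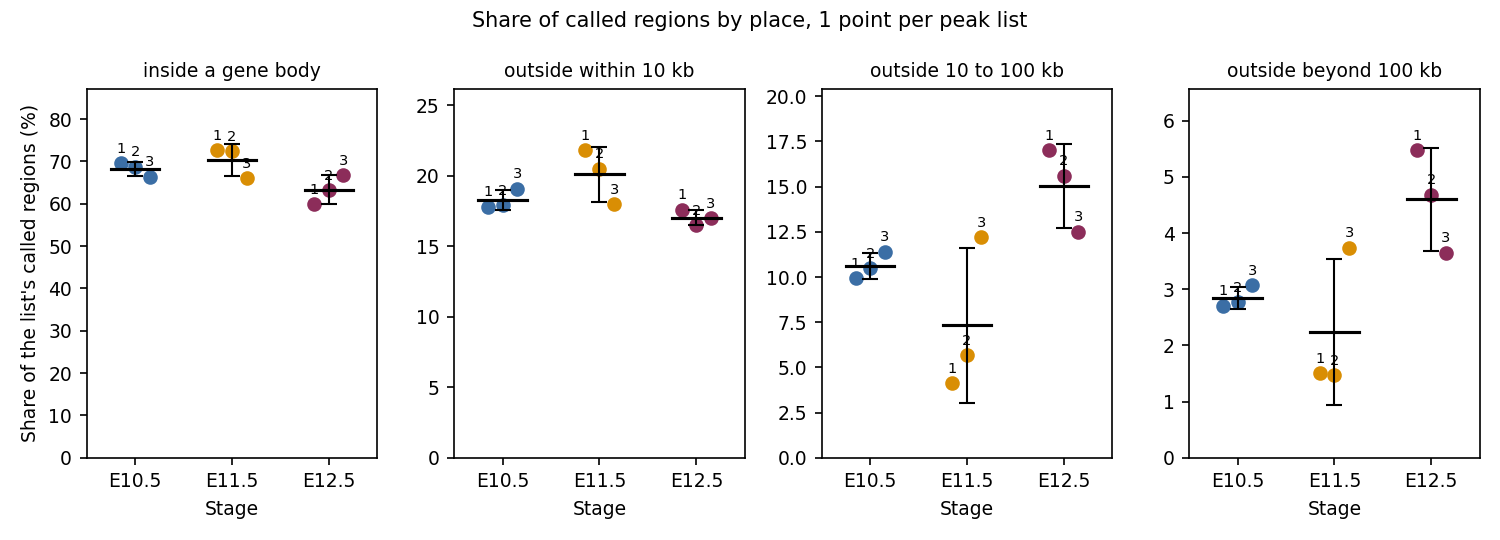
Share of each list's called regions (vertical axis, percent, each panel from 0 on its own scale) in the 4 classes of place, for regions called in 3 or more lists. Numbered points are the 3 lists of a stage, bars are mean and SD; for regions 10 to 100 kb away the E12.5 lists lie at 12.5% to 17.0% and E11.5 lists 1 and 2 at 4.12% and 5.68%.

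Longer lists call more of the rare regions, so calls were also set against the number expected from a model with 1 term for each list and 1 for each region's number of lists. Of the 2644 regions called in 3 to 8 lists, E12.5 list 1 called 1327 where 774 were expected, list 2 2084 where 1680 were expected, and list 3 1081 where 909 were expected. E11.5 list 1 called 194 against 413, list 2 588 against 1200 and list 3 1892 against 2060. The log2 ratio of observed over expected calls was -0.14, -0.13 and 0.12 at E10.5, -1.09, -1.03 and -0.12 in the E11.5 lists, and 0.78, 0.31 and 0.25 in the E12.5 lists. The E12.5 lists were thus above all 6 others, and E11.5 lists 1 and 2 well below the rest. E12.5 exceeded E10.5 by 0.5 and E11.5 by 1.19 on the log2 scale (exact permutation p = 0.1 each, adjusted 0.2). The slope of 0.25 per day gave an exact permutation p of 0.365. Without E11.5 lists 1 and 2 the slope was 0.27 per day, and E12.5 exceeded E11.5 by 0.49. Without E12.5 list 1 the slope was 0.09 (exact permutation p = 0.73) and E12.5 exceeded E10.5 by 0.32 (exact permutation p = 0.2). In equal-length lists E12.5 exceeded E10.5 by 0.96 and E11.5 by 1.78, and the slope was 0.48 (exact permutation p = 0.155). With peaks of −log10 q of 5 or more, E12.5 exceeded E10.5 by 1.27. Runs per sample and fold level also move with these values, and their part in the result was not tested.

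Regions beyond 100 kb had a like profile, with stage means of -0.17, -0.64 and 0.51 in order of age. The E12.5 minus E10.5 change of regions 10 to 100 kb away, less theirs, was -0.18 on the log2 scale (exact permutation p = 0.1, adjusted over 20 tests 0.182). Regions inside genes had means of 0.02, 0.08 and -0.11, and those within 10 kb had -0.01, 0.15 and -0.14. Against each of these the E12.5 minus E10.5 change was 0.62 higher (exact permutation p = 0.1, adjusted 0.182). Within the set, bins of distance gave close values, since E12.5 minus E10.5 was 0.47 at 10 to 20 kb (858 regions called in 3 to 8 lists), 0.47 at 20 to 50 kb (1127) and 0.59 at 50 to 100 kb (659). The nearest and farthest bins differed by -0.12 (exact permutation p = 0.1, adjusted 0.182). By breadth of calling, E12.5 minus E10.5 was 0.94 for regions called in 3 lists, 0.43 in 4 and 0.28 in 5. It was -0.05 in 6, -0.06 in 7 and -0.3 in 8. E12.5 minus E11.5 changed less, at 1.31, 1.28, 1.16, 1.07 and 0.9 for 3 to 7 lists, with -0.12 in 8. In widely called regions the ratio has little room to rise. In 8 lists, E12.5 list 2 called all 29 regions, where 27.9 were expected. These values therefore do not show how far the stage pattern itself changes with breadth.

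Regions at a non-coding promoter had a different stage profile by value from the rest of the set, though no test of 3 lists against 3 can pass 0.05. In the 99 of them called in 3 to 8 lists the log2 ratio was -0.08, -0.03 and -0.03 at E10.5, 0.37, 0.42 and 0.13 in the E11.5 lists, and -0.6, -0.14 and -0.3 in the E12.5 lists. The 3 stages did not overlap, with E11.5 highest and E12.5 lowest. In the 2545 regions away from annotated promoters it was -0.14, -0.14 and 0.12, then -1.24, -1.15 and -0.13, then 0.82, 0.33 and 0.27. The promoter regions' means were -0.05 ± 0.03, 0.31 ± 0.16 and -0.35 ± 0.23, and those of the others -0.05 ± 0.15, -0.84 ± 0.62 and 0.47 ± 0.3 (SD, n = 3 lists). The difference between both groups in the E12.5 minus E10.5 change was -0.83, and in E12.5 minus E11.5 it was -1.97 (exact permutation p = 0.1 each, adjusted over 20 tests 0.182). Without E11.5 lists 1 and 2, the promoter regions went from a mean of 0.1 ± 0.04 at E10.5 to -0.27 ± 0.3 at E12.5, and the others from -0.26 ± 0.15 to 0.29 ± 0.31. This split was chosen after seeing the data. The order with E11.5 highest and E12.5 lowest is not particular to these promoter regions. Stage means had it within 10 kb of a gene (-0.01, 0.15 and -0.14) and inside genes (0.02, 0.08 and -0.11). Promoter regions were also a larger share of the widely called regions, and the part of breadth in the difference was not tested.

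**Figure D3:**
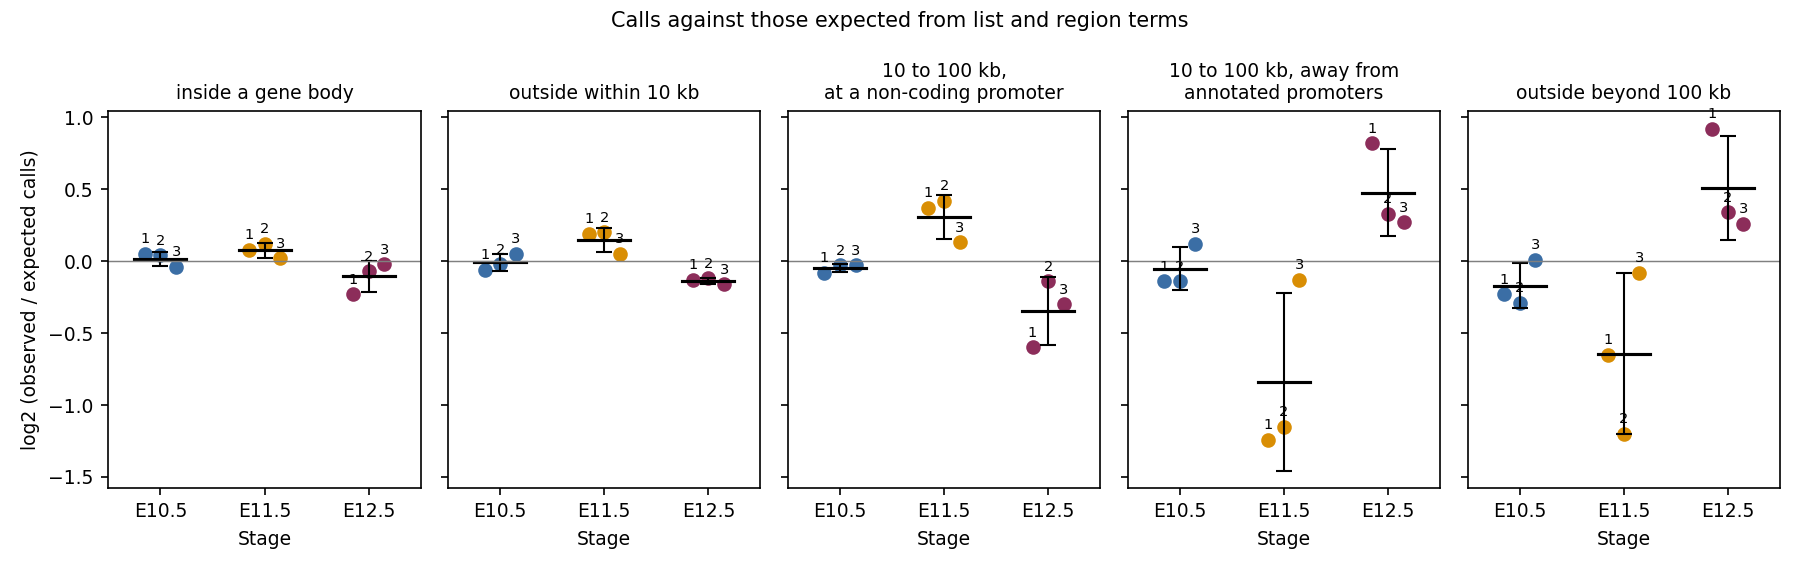
Log2 of observed over expected calls (vertical axis) by stage (horizontal axis) for regions called in 3 to 8 lists, in 5 groups by place. Numbered points are lists and bars are mean and SD; at E12.5 regions 10 to 100 kb from a gene and away from annotated promoters lie at 0.27 to 0.82, and those at a non-coding promoter at -0.6 to -0.14.

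Calls in 2 or more of a stage's 3 lists gave the same order. By that rule 865 regions (32.5%) were called for E10.5, 566 (21.3%) for E11.5 and 1710 (64.2%) for E12.5, against 48.8%, 55.0% and 57.3% of all regions. Calls at every stage were made in 1137 (42.7%, against 55.7%). In E10.5 lists alone 7 regions were called (0.263%, against 0.175% of all regions), in E11.5 lists alone 66 (2.48%, against 3.29%) and in E12.5 lists alone 75 (2.82%, against 1.69%). Among the 1450 regions called in exactly 3 lists, the commonest trio was E11.5 list 3 with E12.5 lists 1 and 2, in 293 regions (20.2%, against 14.7% of all such regions). Those are the 3 longest lists.

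A region counted as gained if the later stage had it in 3 of 3 lists and the earlier stage in 0 of 3, and as lost in the opposite case. At E12.5 against E10.5, 127 regions were gained (4.77%, with 3.0% of all 18808 regions) and 22 lost (0.826%, with 1.92%). At E12.5 against E11.5, 160 were gained (6.01%, with 3.52%) and 116 lost (4.36%, with 7.74%). At E11.5 against E10.5, 75 were gained (2.82%, with 4.04%) and 35 lost (1.31%, with 0.936%). The 3 comparisons share lists. Leaving out 1 list frees more regions to qualify: without E12.5 list 3, 434 were gained at E12.5 against E10.5, and without list 1, 216. Losses in that comparison were 49 without E12.5 list 2 and 37, 50 and 55 without E10.5 lists 2, 1 and 3. Against E11.5, gains were 405 without E11.5 list 3, 319 without E12.5 list 1 and 373 without E12.5 list 3, and losses 246 without E11.5 list 1. At E11.5 against E10.5, gains were 158 without E11.5 list 1, and losses were 127, 94 and 122 without E10.5 lists 1, 2 and 3 and 169 without E11.5 list 3. With all lists kept, gains at E12.5 were above the share over all regions and losses at E12.5 below it. The share over all regions is given only for that setting. The counts with a list left out, or with other peaks, therefore do not show whether this holds there. With lists cut to equal length, 11 were gained and 14 lost at E12.5 against E10.5, so the excess of gains over losses did not hold at equal length. With peaks of −log10 q of 5 or more, 5 were gained and 8 lost. Of the 104 regions at a non-coding promoter, 14 (13.5%) were lost and 1 gained at E12.5 against E11.5.

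**Figure D4:**
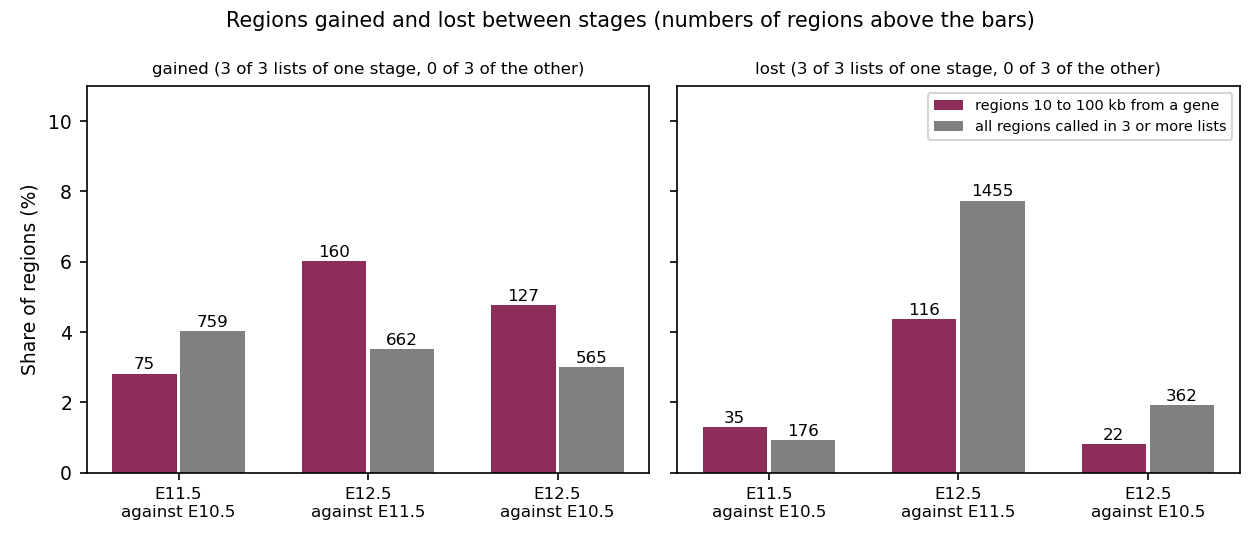
Share of regions (vertical axis, percent) gained (left) or lost (right) in each comparison of stages, for regions 10 to 100 kb from a gene and for all regions called in 3 or more lists; numbers above bars count regions. At E12.5 against E10.5, 127 of the former were gained and 22 lost.

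Among the gained regions with the highest ranks at E12.5 was one at chr15:54777844-54779385, 24.9 kb from Ccn3, which encodes a matricellular protein. It ranked at 94.7, 97.5 and 98.0 in the E12.5 lists and 71.6 and 91.0 in E10.5 lists 1 and 2, and was in 0 E11.5 lists. A region at chr6:144825258-144826034 lies 43.4 kb upstream of Sox5, a transcription factor of cartilage formation. Its ranks were 76.2, 99.8 and 96.5 at E12.5, with 27.4 in E10.5 list 2 the only other call. Regions near Far2 (97.8, 98.8 and 79.9), Kif5b (98.3, 97.8 and 79.9) and Parp1 (99.4, 77.6 and 88.8) were called only in the 3 E12.5 lists. Against E10.5, gained regions of high rank lay near Zcrb1, Phb and Ndufa8, the last with 99.8, 99.5 and 79.9 at E12.5 and 83.1 in E11.5 list 3.

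Lost regions at E12.5 included one at chr9:96669815-96670285, 12.7 kb downstream of the zinc finger gene Zbtb38. It ranked at 85.8, 88.8 and 51.6 at E10.5 and 96.2, 96.1 and 98.2 in the E11.5 lists and was in 0 E12.5 lists. Regions near Klrb1c, Nbea and Rab2a were likewise called in all 6 lists of the first 2 stages and 0 at E12.5, with mean ranks of 83.5, 62.2 and 81.5. A region near Efcab2 was called only in the 3 E10.5 lists, at ranks of 84.8, 69.2 and 86.3. Regions called at E10.5 and E12.5 but in 0 E11.5 lists lay near Abca1, a cholesterol transporter gene, and near Tm2d3, Ttc27 and Aipl1. Those near Abca1, Tm2d3 and Ttc27 were in all 6 lists of those stages. The one near Aipl1 was in the 3 E10.5 lists and E12.5 list 2. Called only at E11.5, with mean ranks of 99.9 and 99.5, were regions near Gm51425 and Trim43c, and both hold promoters of non-coding genes, BC002059 in the former and 9330159M07Rik and Gm26611 in the latter. St6gal2, Rassf9 and Xcl1 were the nearest genes of the next 3, with mean ranks of 91.7, 87.3 and 86.0.

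The 19 regions called in all 9 lists were by that rule called at every stage. The strongest by mean rank lay 31.6 kb downstream of Ptpdc1 (95.7), 26.5 kb from Tead4 (95.5), 23.0 kb upstream of Rps6ka1 (92.2), 45.6 kb downstream of Zfp958 (89.2) and 62.0 kb upstream of Cp (87.0). Tead4 encodes a DNA-binding factor of the Hippo pathway and Rps6ka1 a kinase downstream of ERK. At chr13:48545603-48546882, near Ptpdc1, the ranks were 94.8, 90.3 and 97.4 at E10.5, 96.1, 86.9 and 98.0 in the E11.5 lists, and 99.2, 98.9 and 99.3 in the E12.5 lists. At chr6:128200160-128201165, near Tead4, 8 of the 9 ranks were 95.9 or higher and E12.5 list 1 had 76.2. Others of the 19 were 18.6 kb upstream of Fos (mean rank 71.9), an immediate early gene, and 76.5 kb upstream of Hmga2 (67.1), a chromatin protein of embryonic growth. These genes other than the 5 strongest were chosen after their values were seen.

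The 2663 regions had 1991 different nearest genes, of which 1484 had 1 region, 379 had 2 and 97 had 3. Another 26 had 4, 4 had 5 (Dmrta2, Dok5, Rpl14 and Twist2) and 1 had 6, the amino acid transporter gene Slc38a4. The 6 regions near Slc38a4 were called 3, 3 and 1 times in the E10.5 lists, 0, 4 and 5 in the E11.5 lists and 0, 2 and 2 in the E12.5 lists. Near Twist2, which encodes a bHLH factor of the mesenchyme and dermis, the 5 regions gave 2, 1 and 2 calls, then 0, 1 and 3, then 2, 3 and 2. Neither gene passed the test described next.

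**Figure D5:**
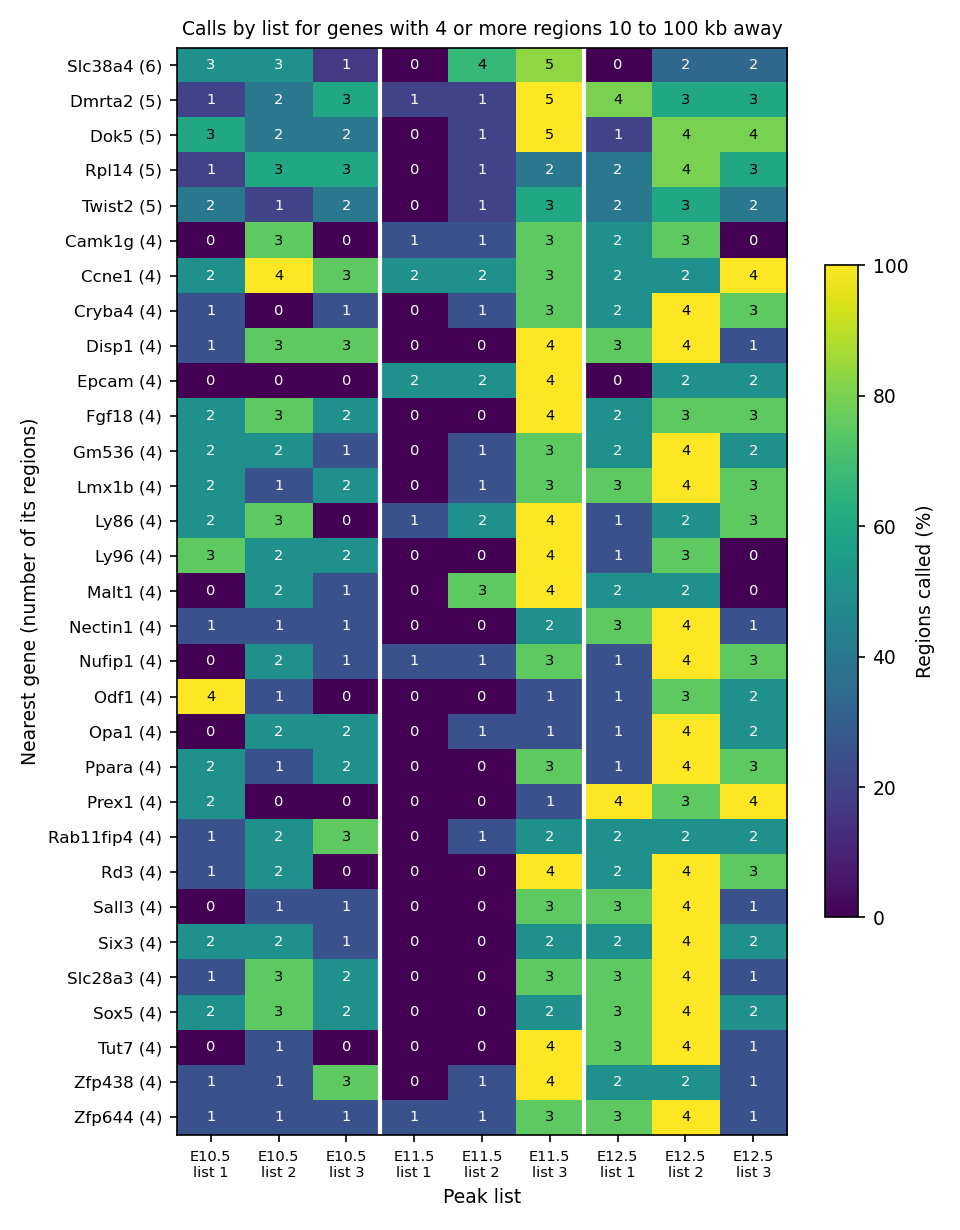
Number of regions called in each peak list (columns) for the 31 genes with 4 or more regions 10 to 100 kb away (rows, with the number of regions); colour gives the percent of the gene's regions called. E11.5 lists 1 and 2 call 0 or 1 region of most genes; Prex1 has 4, 3 and 4 calls at E12.5 and Epcam 0 in every E10.5 list.

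For these 31 genes and for every other gene and class of place with 4 or more regions called in 3 to 8 lists, 284 in all, the standardised residual per list was compared between stages by limma. This residual is observed minus expected calls over the root of their expected variance, so its differences are in units of that root and not in calls. P-values had Benjamini-Hochberg adjustment over the 284. At E12.5 against E11.5, 12 of the 31 genes had more calls and 0 fewer (25.4% and 2.46% over all 284). At E12.5 against E10.5, 1 had more and 0 fewer (4.58% and 0.0% over all). At E11.5 against E10.5, 1 had more and 0 fewer (0.352% and 1.06% over all). Without E11.5 lists 1 and 2, the 12 of 31 became 1 of the 27 genes that could then be tested. It was 4 without E11.5 list 1 alone, 1 without E11.5 list 2 and 2 without E12.5 list 2, so the count rested on those lists. The count over all units fell too, from 72 of 284 to 31 of 277, 18 of 284 and 35 of 284 in turn.

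Prex1, which encodes an activator of the Rac GTPase, had the largest change of the 31 genes. Its 4 regions on chromosome 2 lie 16.3, 72.2 and 90.5 kb downstream and 26.8 kb upstream of the gene. They gave 2, 0 and 0 calls at E10.5, 0, 0 and 1 in the E11.5 lists, and 4, 3 and 4 in the E12.5 lists, and the E12.5 lists overlapped neither earlier stage. The standardised residual rose by 4.03 from E11.5 (SE 0.814, limma adjusted p = 9e-05) and by 3.21 from E10.5 (adjusted p = 0.0114). The first passed in all 14 alternative settings run for it. The second did not pass in 3 of 14, with adjusted p of 0.182 without E12.5 list 1, 0.0978 without E10.5 list 2 and 0.0509 with regions called in 2 or more lists. The peaks of these regions were weak, at ranks of 1.21 to 59.3 in the E12.5 lists.

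Sox5 came next at E12.5 against E11.5, with 2, 3 and 2 calls of its 4 regions at E10.5, then 0, 0 and 2, then 3, 4 and 2 in the E12.5 lists. These regions all lie 20.1 to 43.4 kb upstream. The residual rose by 2.8 (SE 0.814, limma adjusted p = 0.00781), and it did not pass without E11.5 list 2 (adjusted p = 0.0836) or without E11.5 lists 1 and 2 (0.103). Nectin1, a cell adhesion gene in which loss causes cleft lip and palate in people, rose by 2.53 (limma adjusted p = 0.0183). The homeobox genes Six3 and Lmx1b rose by 2.45 and 2.43 (limma adjusted p = 0.0224 and 0.0227). Sall3, Rpl14, Odf1, Opa1, Ppara, Cryba4 and Slc28a3 also passed, with rises of 2.06 to 2.35. Six3 lost its call in 3 of 14 alternatives, Nectin1, Lmx1b and Rpl14 in 5 of 15, and the other 6 in 7 to 11 of 14 or 15. In all 12, E11.5 list 1 held 0 calls and list 2 held 0 or 1.

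Epcam, the marker of epithelial cells, was the 1 gene that rose at E11.5 against E10.5. Its 4 regions on chromosome 17, 22.3 to 64.4 kb upstream, were called 0 times in each E10.5 list, 2, 2 and 4 times in the E11.5 lists, and 0, 2 and 2 times in the E12.5 lists. The rise in the standardised residual was 2.87 (SE 0.814, limma adjusted p = 0.0337), and it did not pass in 9 of 15 alternatives, with adjusted p up to 0.407. These include leaving out any of the E10.5 lists, E11.5 list 1 or 3, or E12.5 list 2 alone. Regions at chr17:87571373-87571861 and chr17:87613249-87614021 were called only in the 3 E11.5 lists, the second holding the Gm46609 promoter printed above. Epithelial promoters were called at 0, 1 and 0 of 9 in the E10.5 lists, 0, 1 and 2 in the E11.5 lists and 0, 1 and 0 in the E12.5 lists, with Krt5, Krt8, Krt14 and Krt18 in none. Their part in the Epcam result was not tested.

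Developmental regulators had a larger share of their regions at this distance, by count, than genes at large, and so had most marker lists of other cell types. Regions 10 to 100 kb away made up 14.2% of all regions. They were 33 of 120 (27.5%) for 50 facial and palate patterning genes, 12 of 32 (37.5%) for 17 cranial neural crest genes, 35 of 143 (24.5%) for 58 signalling genes and 13 of 45 (28.9%) for 20 skeletal genes. Among lists of other cell types the counts were 7 of 14 for epithelial, 10 of 22 for endothelial and 9 of 23 (39.1%) for neural and glial genes, with 1 of 13 for blood and 1 of 4 for muscle. These are counts without a test, and the length of the gaps around these genes was not taken into account.

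The 33 patterning regions were called 10, 11 and 14 times at E10.5, 0, 4 and 24 in the E11.5 lists and 19, 30 and 13 in the E12.5 lists. The 35 signalling regions were called 9, 16 and 10 times, then 4, 12 and 27, then 20, 23 and 10. Over all 2663 regions the lists called 35.7%, 43.4% and 37.5% at E10.5, 8.0%, 22.8% and 71.8% in the E11.5 lists and 50.5%, 79.0% and 41.3% in the E12.5 lists. In the patterning list, 2 of the 33 regions were gained at E12.5 against E11.5 and 0 lost, where 6.01% of the whole set were gained. They lie 40.2 kb from Tbx3 and 21.6 kb from Sall3, both transcription factor genes of embryonic patterning, and their ranks at E12.5 were 20.4, 67.7 and 19.7 for Tbx3 and 21.5, 27.3 and 64.9 for Sall3. In the neural crest list at E12.5 against E10.5, 1 of 12 regions was gained and 1 lost (4.77% and 0.826% of the whole set). The gained one lies 28.1 kb upstream of Foxc1 and the lost one 32.7 kb downstream of Twist2.

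Regions near signalling genes were both gained and lost, in small counts that were not tested. Of the 35, 1 was gained and 4 lost at E12.5 against E11.5 (6.01% and 4.36% of all 2663 regions). At E12.5 against E10.5, 2 were gained and 1 lost (4.77% and 0.826%). At E11.5 against E10.5, 2 were gained and 0 lost (2.82% and 1.31%). A region 26.0 kb downstream of Fgf9, a growth factor gene, was called only in the 3 E12.5 lists, at ranks of 76.2, 77.6 and 79.9. One 21.8 kb upstream of the receptor gene Notch1 was gained at E12.5 against E10.5. Regions near Gli3, the Hedgehog transcription factor, and Rarb, a retinoic acid receptor, were lost at E12.5 against E11.5, and one near Boc, a Hedgehog co-receptor, at E12.5 against E10.5. Regions near Pdgfc and 93.8 kb downstream of Fgf10, both ligand genes, were called only at E11.5, with mean ranks of 41.5 and 48.3. Fgf18, another ligand gene, had 2, 3 and 2 of its 4 called at E10.5, 0, 0 and 4 in the E11.5 lists and 2, 3 and 3 in the E12.5 lists, and did not pass the test.

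In the skeletal list, a region 47.3 kb upstream of Runx1 was called only at E12.5 (ranks 74.2, 95.0 and 26.1), and the Sox5 region above was gained. Runx1 is also in the blood list. Of the 13 skeletal regions, 2 were gained and 3 lost at E12.5 against E11.5 (6.01% and 4.36% of the whole set). Those lost were a region near Sox6 and 2 near Mef2c, a factor of muscle and craniofacial neural crest. The latter, at chr13:83730505-83731543 and chr13:83744931-83745630, lie 63.9 and 78.2 kb downstream. The first was called in all 6 lists of the first 2 stages and the second in 5 of them, with 0 calls of either at E12.5. Among the 9 neural and glial regions, one near the neuronal gene Elavl4 was called only at E12.5 and one near Isl1 only at E11.5. Of the whole set, 2.82% and 2.48% were called only at these stages. Among the 10 endothelial regions, one near Sox17 was lost at E12.5 against E11.5.

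Few regions lay at small RNA genes. One at chr3:88214720-88215548 ended 50 bp from Mir9-1, a microRNA of neural progenitors, and covered Mir3093, with Rhbg as its nearest protein-coding gene. It was called in E10.5 lists 1 and 2, E11.5 list 3 and E12.5 list 3, at ranks of 15.2 to 41.4. A region at chr14:115042002-115042684, in the gap beside Gpc5, lay 987 bp from Mir17, the first gene of a microRNA cluster that promotes cell proliferation. It was called in E10.5 lists 1 and 3 and E11.5 lists 2 and 3, at ranks of 36.9 to 87.3, and in 0 lists at E12.5. Its neighbour, which begins at base 115040365 and also has Gpc5 nearest, was called in 8 lists at ranks of 44.5 to 98.6.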

How the data were processed

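ATAC-seq peak lists of 9 samples (3 per stage) were used as deposited. Per the submitters' processing notes the authors used MACS2, Bowtie2 and deepTools 3.3.1 on mm10, and per the labels they called peaks from paired-end alignments and removed blacklisted regions. The sources used here give neither read filters, nor the transposase offset, nor the calling threshold. Each list holds the authors' fold enrichment (a ratio) and −log10 p and −log10 q values, which served only to rank and filter within it. The lowest deposited −log10 q was 1.3 to 1.32. No counts were among the files, so the depth is unknown.

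Regions were merged and classed as the report states, against RefSeq genes of GRCm38.p6. A Rasch model (additive logit of list and region, conditional on the number of lists calling) gave the expected calls. Stages were compared by exact two-sided permutation over lists: 20 splits for 3 against 3, 1680 assignments for the slope and 512 sign flips for ranks. Standardised residual calls per gene were tested with limma 3.58.1 (R 4.3.3), whose prior degrees of freedom were infinite, so that all units share 1 variance. Scripts ran in Python 3.11.15 with SciPy 1.17.1 and were tested on simulated data. Named regions and genes are the 10 genes with most regions, the 5 gained and lost regions of highest mean rank per comparison, the 5 strongest regions called in all 9 lists, members of the gene lists that were gained or lost, and up to 5 genes per direction past limma. Genes tied for the tenth place are given in the heat map. The regions, gene lists and tests were chosen with earlier results of these data known. No genome sequence was used here, so motifs planned around peak summits were searched in RefSeq promoter windows instead, with GC box, ETS, CREB, CCAAT and TATA added and 6 planned motifs not searched. Alternatives were stricter peaks, other merging, distances, unit sizes and list numbers, equal-length lists, a replicate block, and leaving out each list.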

Additional observations from a re-analysis of the deposited data

How the results depend on the processing

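The E12.5 minus E10.5 and E12.5 minus E11.5 differences of share and of log2 observed over expected calls stayed positive in every alternative, in sizes that the report gives, the rank differences stayed negative, and no 3 against 3 test can go below 0.1. With peaks of −log10 q of 5 or more, the share slope was 1.22 points per day (exact permutation p = 0.00833), the log2 slope 0.64 (exact permutation p = 0.0143), and the share at E11.5 minus E10.5 turned to 0.547. These p-values are not adjusted for the number of tests. Without both E11.5 lists 1 and 2, an alternative chosen after seeing the data, the slopes were 2.21 and 0.27. In it E11.5 minus E10.5 turned to 1.61 points of share and 0.05 in log2. The rank difference from regions beyond 100 kb was -1.83 by −log10 p and that from gene bodies -9.85 without both lists, and neither passed; the cause was not tested.

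Gained and lost counts moved most, in part because fewer lists or regions enter. At −log10 q of 5 or more, 2 were lost at E11.5 against E10.5, 3 gained and 73 lost at E12.5 against E11.5, and 5 gained and 8 lost at E12.5 against E10.5. Among regions called in 4 or more lists, 9 were gained at E11.5, 85 gained and 50 lost at E12.5 against E11.5, and 52 gained at E12.5 against E10.5. In equal-length lists these were 30, 27, 50 and 11, with 14 lost at E12.5 against E10.5. At 20 to 100 kb, 22 were lost at E11.5, and 83 gained and 13 lost at E12.5 against E10.5. Without both E11.5 lists, 598 were gained at E11.5 and 276 lost at E12.5 against E11.5. Fewer E11.5 lists then have to meet the rule, so more regions of any class can qualify. No share over all regions is given for these alternatives or for leaving out single lists. Their counts therefore do not show whether gains stay above that share or losses below it.

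The number of genes tested by limma changes with the setting. With 31 genes, 1 had more calls at E11.5 against E10.5, 12 at E12.5 against E11.5 and 1 at E12.5 against E10.5. With regions called in 2 or more lists these were 0, 64 and 11 of 348 (7, 258 and 45 of all 1693 units). Of the 348, 6 and 1 had fewer calls at E12.5 against E11.5 and E10.5 (56 and 5 of 1693). With 4 or more lists, 0, 0 and 0 of 2 had more calls. Merging at 100 bp gave 0, 6 and 1 of 15 (1, 51 and 8 of 194 units), and 20 to 100 kb gave 1, 5 and 0 of 13 (1, 66 and 12 of 270). Units of 3 regions gave 0, 24 and 3 of 126 (0, 104 and 15 of 821), and units of 6 gave 0, 0 and 0 of 1. With units of 3, 1 of 126 had fewer calls at E12.5 against E11.5 (10 of 821). For more calls again: without both E11.5 lists 1 and 2 the counts were 0, 1 and 1 of 27 (0, 4 and 4 of 266). Too few units were left for limma at −log10 q of 5 (2) and in equal-length lists (0). At unadjusted p under 0.05, 3 of the 31 genes had fewer calls at E11.5 against E10.5 by limma, and 0 in each other comparison. Over all 284 units it was 30 at E11.5 against E10.5, 11 at E12.5 against E11.5 and 6 at E12.5 against E10.5.

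Leaving out 1 list at a time, gained and lost counts ranged over 75 to 158 and 35 to 169 at E11.5 against E10.5, 160 to 405 and 116 to 246 at E12.5 against E11.5, and 127 to 434 and 22 to 55 at E12.5 against E10.5. Genes with more calls ranged over 0 to 1, 1 to 13 and 0 to 4 in the same comparisons, and those with fewer calls over 0 to 0, 0 to 1 and 0 to 0. Shares and log2 ratios kept their direction.

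Embryos of different stages are different animals, so sample numbers do not pair them. Residuals of lists with the same number correlated across stages at -0.198 to 0.133, and those with different numbers at -0.127 to 0.203. These values cannot show whether samples of the same number were handled together. With the replicate block, 7 genes had more calls at E12.5 against E11.5 (51 of all 284 units), and it changed no other count of the 31 genes.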
